A study of Mus musculus with 4 samples.

Results

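*Krt6a*, *Krt16* and *Krt17*, 3 of the 328 genes on a mouse Xenium panel, encode the stress keratins of the skin. They were taken by name, and all 3 were read on every slide. Keratins form the filaments of epithelial cells from pairs of a type II and a type I chain. *Krt6a* encodes a type II chain, and *Krt16* and *Krt17* encode type I chains that can pair with it. In resting skin these keratins are known from the hair follicle, where the companion layer and outer root sheath hold *Krt6a* and the follicle epithelium holds *Krt17*. In the epidermis between follicles *Krt6a* and *Krt16* are known to be scarce until it is wounded or inflamed, and in the mouth *Krt6a* and *Krt16* belong to the resting epithelium. In the RefSeq annotation of GRCm38.p6, *Krt16* lies at chr11:100246091-100248902 and *Krt17* at chr11:100256215-100261029, close to one another, and *Krt6a* lies at chr15:101689928-101694305. Probes of such close relatives could also bind a paralogue (*Krt6b* for *Krt6a*, *Krt14* for the type I pair), which was not tested, and levels were therefore not ranked between genes.

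The study used Tet-On mice in which the *Krt5* promoter, active in basal keratinocytes and follicle epithelium, drives rtTA and doxycycline then turns on TRE-*Pitx1*. Transcripts were located one by one in the sections by probe-based imaging (Xenium) and assigned to segmented cells. PITX1+ skin came from mice given doxycycline chow for 6 weeks from telogen, and Control skin from littermates of the same lines on normal chow. Dorsal skin was unwounded from males on one slide and from females on another, buccal mucosa of both sexes came from Control mice, and male dorsal skin 4 days after excisional wounding (POD4) lay on the last slide. Ages were not given in the sources used here. There were 3 Control and 4 PITX1+ sections of unwounded skin, 7 of buccal mucosa, 1 Control wound and 2 PITX1+ wounds. The labels give both conditions for each skin slide as a whole and not the condition of a section, so each section was assigned by its order along the slide. In unwounded skin this order gives each section a cell number close to a section total that the study lists for the same condition, and the wounds rest on the order alone. Control 1, Control 2, PITX1+ 1 and PITX1+ 2 lay on the female slide and Control 3, PITX1+ 3 and PITX1+ 4 on the male slide. Slide and sex are the same variable here, and tissue and slide cannot be told apart for buccal mucosa. The slides may also differ by run, which the labels do not give. The labels do not tie sections to animals. For these slides the study counts as many PITX1+ mice, Control skins and buccal mucosae as there were sections, and p-values measure the spread between these sections.

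Levels are given for keratinocyte-like cells as transcripts of the gene scaled to 1000000 panel transcripts of those cells (CPM), next to transcripts per cell where depth matters. Unwounded skin gave 4139 to 6290 keratinocyte-like cells per Control section and 12159 to 32442 per PITX1+ section. The buccal sections had 1296 to 4702 such cells, apart from Buccal 3 with 2 cells, which entered no comparison. These cells held 34.6 to 59.9 panel transcripts on average in Control skin, 85.8 to 112 in PITX1+ skin and 160 to 303 in buccal mucosa. Fibroblast-like cells of the same sections served as background, being cells that should lack these keratins.

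The induced gene was read first. In keratinocyte-like cells *Pitx1* stood at 61.0, 53.2 and 13.95 CPM in Control 1 to 3 and at 41.9, 79.7, 1065 and 868 CPM in PITX1+ 1 to 4. On the male slide both PITX1+ sections were far above the Control section, and on the female slide the PITX1+ sections lay on either side of the Control pair. The change over all 7 sections was 1.72 on the log2 scale (SE 0.99) with an adjusted p of 0.207 by edgeR's quasi-likelihood test. The 2 female sections assigned to PITX1+ therefore rest on their place on the slide and not on *Pitx1*, and results are also given within each slide.

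In CPM *Krt16* was the member that separated PITX1+ from Control skin. It stood at 350.1, 312 and 377 CPM in Control 1 to 3 and at 7305, 13690, 9856 and 3645 CPM in PITX1+ 1 to 4. The lowest PITX1+ section was far above the highest Control section, and the groups did not overlap. Per cell this was 0.0210, 0.0171 and 0.0131 transcripts in Control skin against 0.730, 1.38, 0.845 and 0.407 in PITX1+ skin. *Krt16* rose by 4.71 on the log2 scale (SE 0.59, adjusted p = 0.00354, edgeR with slide as covariate and Benjamini-Hochberg adjustment over 328 genes). It rose on the female slide (5.30, SE 0.64, adjusted p = 0.00478, edgeR). On the male slide, with 1 Control section against 2, the difference was 3.84 (SE 0.82, adjusted p = 0.0224, edgeR). That p takes its spread from the sections of the other groups, since the lone male Control section has none of its own, and does not by itself show a rise on that slide. Of all genes tested, 33.2% were called in this comparison, and 1 of the 3 members was called. How many of all genes did not overlap between groups, here or in the comparisons below, was not counted. Within the female and the male slide 27.4% and 29.9% of genes were called. The Control values rest on 132, 82 and 54 transcripts. Fibroblast-like cells held 184, 129 and 14.7 CPM of *Krt16* in Control skin and 44.3 to 329 CPM in PITX1+ skin, and in all 3 Control sections the keratinocyte-like level was above the fibroblast-like one.

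**Figure D1:**
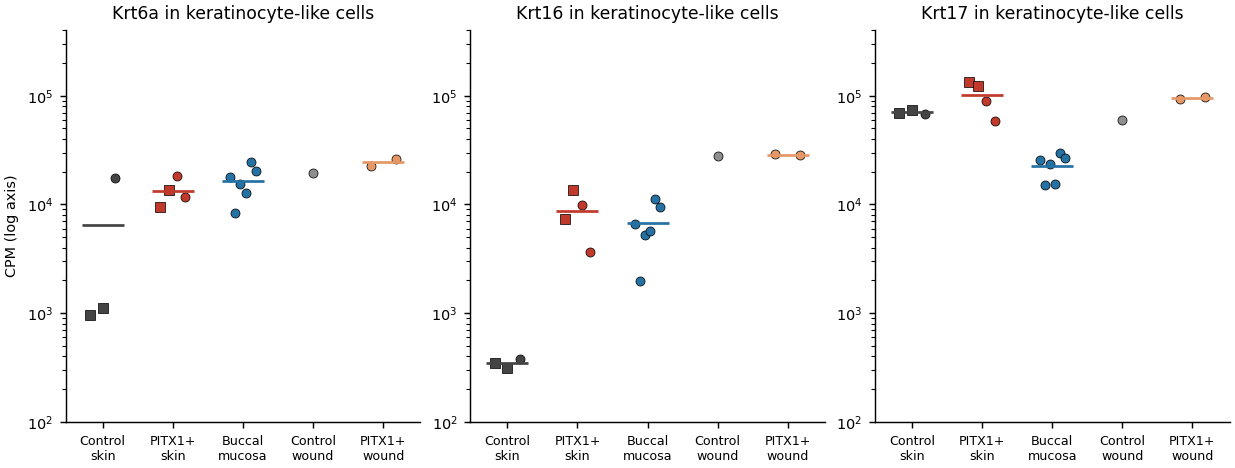
Level of each stress keratin in keratinocyte-like cells of every section, in CPM on a log axis, with sections of the female slide as squares, all other sections as circles and the group mean as a line. *Krt16* in Control sections (312 to 377 CPM) lies below every other section, *Krt6a* in Control 3 (17400 CPM) lies among the PITX1+ sections, and *Krt17* is lowest in buccal mucosa.

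In CPM *Krt6a* did not separate the groups, and the Control section of the male slide was high. It stood at 960.1, 1113 and 17400 CPM in Control 1 to 3 and at 9392, 13560, 18150 and 11800 CPM in PITX1+ 1 to 4. On the female slide both PITX1+ sections were above both Control sections, and on the male slide the Control section lay between the PITX1+ sections. Per cell, *Krt6a* gave 0.058, 0.061 and 0.60 transcripts in Control 1 to 3 and 0.94, 1.36, 1.56 and 1.32 in PITX1+ 1 to 4. On that scale, which takes in the greater depth of PITX1+ cells, the groups did not overlap. Total panel transcripts per cell did not overlap either, so this separation is not particular to *Krt6a*. Over all 7 sections the difference was 1.83 on the log2 scale (SE 1.02, adjusted p = 0.187, edgeR). *Krt6a* rose on the female slide (3.78, SE 0.37, adjusted p = 0.00274, edgeR), whereas the male slide gave -0.56 (SE 0.40, adjusted p = 0.298, edgeR). The interaction term passed: male minus female was -4.34 on the log2 scale (SE 0.52, adjusted p = 0.0111, edgeR), as it did for 3.96% of all genes. *Krt16* (-1.46, adjusted p = 0.395, edgeR) and *Krt17* (-1.37, adjusted p = 0.188, edgeR) did not pass it. The male side of this test is a single Control section with no spread of its own, so the test says that Control 3 differed from the female Control sections relative to PITX1+ skin, and not that slides or sexes do. Without Control 3, when the male slide has no Control left, *Krt6a* was called (3.78, adjusted p = 0.00285, edgeR).

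The high *Krt6a* of Control 3 was present in every keratinocyte class with enough cells. Basal keratinocyte-like cells held 690, 714 and 21160 CPM in Control 1 to 3. Cornifying cells held 376, 486 and 10670 CPM, and upper hair follicle-like cells 192, 405 and 8379 CPM. Bulge-like cells, where *Krt6a* was highest in all 3 Control sections, held 5780, 5979 and 30570 CPM. In each of these classes Control 3 stood apart from the other Control sections. Fibroblast-like cells of Control 3 held 125 CPM against 84.3 and 45.9 CPM in Control 1 and 2. Set against the female slide with condition as covariate, the male slide was higher for *Krt6a* in bulge-like cells (3.40, SE 0.26, adjusted p = 1.07e-06, edgeR), basal cells (3.27, SE 0.78, adjusted p = 0.0154, edgeR) and cycling cells (1.93, SE 0.55, adjusted p = 0.0159, edgeR). In those classes 69.1%, 39.1% and 47.9% of genes differed between slides. The bulge-like cells of PITX1+ skin lay mostly in a different cluster on each slide, as given below. Cornifying and upper hair follicle-like cells, where 21.1% and 23.3% of genes did, gave 1.43 (SE 1.99, adjusted p = 0.580, edgeR) and 2.10 (SE 0.76, adjusted p = 0.0792, edgeR). Over all keratinocyte-like cells the same term was 2.27 (SE 0.98, adjusted p = 0.0916, edgeR), where 49.7% of genes differed between slides. Control 3 was also the shallowest section, with a median of 25 panel transcripts per keratinocyte-like cell against 46 and 42, and the part of depth in its *Krt6a* level was not tested. Slide and sex cannot be told apart.

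*Krt17* was abundant in every skin section, and in Control skin most of it lay in the classes counted as epidermal (basal, cornifying and epidermal suprabasal-like). These held 78.0%, 74.8% and 60.01% of the *Krt17* transcripts of keratinocyte-like cells in Control 1 to 3, with 81050, 86490 and 86890 CPM in basal cells. Of the cells themselves, 47.4%, 42.1% and 28.6% were basal and 27.9%, 32.2% and 38.9% cornifying. The *Krt17* share was thus close to the share of cells in Control 1 and 2 and below it in Control 3. The classes were named from marker genes and not by position, so follicle cells within the basal class were not told apart from epidermis. Over all keratinocyte-like cells it stood at 69740, 73930 and 68310 CPM in Control 1 to 3 and at 134200, 121600, 89990 and 58760 CPM in PITX1+ 1 to 4. The female PITX1+ sections were the highest, and PITX1+ 4 was below all Control sections. The difference was 0.58 on the log2 scale (SE 0.39, adjusted p = 0.270, edgeR). Within slides it was 1.16 (SE 0.32, adjusted p = 0.0423, edgeR) on the female slide and -0.22 (SE 0.38, adjusted p = 0.662, edgeR) on the male slide. Without Control 3, when the estimate rests on the female slide alone, *Krt17* was called (1.16, adjusted p = 0.0439, edgeR). Per cell, *Krt17* gave 4.18, 4.05 and 2.37 transcripts in Control skin and 13.4, 12.2, 7.72 and 6.57 in PITX1+ skin, so on that scale the groups did not overlap. Total panel transcripts per cell did not overlap between the groups either, so this separation is not particular to *Krt17*. The CPM values take depth out. Fibroblast-like cells held 1117 to 3335 CPM of *Krt17* in Control skin and 2603 to 23100 CPM in PITX1+ skin, so part of the *Krt17* signal lay in cells named for another type.

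The classes of keratinocyte that hold these transcripts differed between the conditions. Classes were named from marker genes after clustering without the 3 members, and carry the ending -like. Basal, cornifying and bulge-like cells made up most of Control skin, with 28.6% to 47.4%, 27.9% to 38.9% and 17.3% to 23.9% of keratinocyte-like cells. Hair matrix-like and hair shaft-like cells were 4.15% to 16.4% and 1.85% to 4.79% in PITX1+ skin and at most 0.0624% and 0% in Control skin, where 0 hair shaft-like cells among 4139 to 6290 allow a share of up to 0.0725%. A class with too few markers to name, with *Cxcl1* and *Sdc1* among the leading genes of one cluster and *Arg1*, *Plet1* and *Krt75* among those of another, made up 3.05% to 20.7% of keratinocyte-like cells in PITX1+ skin and at most 0.193% in Control skin. It is called unnamed keratinocytes here. Such classes enter the whole-population comparison without a Control counterpart. In the 4 classes found in every skin section *Krt16* still rose (3.89, SE 0.65, adjusted p = 0.0113, edgeR), while *Krt6a* (1.69, SE 0.84, adjusted p = 0.157, edgeR) and *Krt17* (0.74, SE 0.37, adjusted p = 0.159, edgeR) did not pass.

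Within single classes 4 of the 5 calls lay in follicle classes, which were also the classes with the most genes called, 34.9% in bulge-like and 18.1% in upper hair follicle-like cells against 11.4% in cycling, 3.47% in basal and 0.658% in cornifying cells. In upper hair follicle-like cells *Krt16* stood at 513, 202 and 150 CPM in Control 1 to 3 and at 9043, 7139, 16900 and 4698 CPM in PITX1+ 1 to 4, and rose by 5.19 on the log2 scale (SE 0.69, adjusted p = 0.00305, edgeR). *Krt6a* rose there too, by 3.92 (SE 0.86, adjusted p = 0.0139, edgeR), from 192, 405 and 8379 CPM to 16830, 15430, 40910 and 18370 CPM, a call that was lost without Control 2 (3.55, adjusted p = 0.0907, edgeR). The Control values there rest on 8, 2 and 1 transcripts of *Krt16* and 3, 4 and 56 of *Krt6a*, in 386, 262 and 231 cells. The size of these rises is therefore loosely set. In that class 18.1% of 215 genes were called. *Krt17* was at its highest there in Control skin, at 196100, 222900 and 237300 CPM, and at 204500, 176400, 181100 and 172100 CPM in PITX1+ skin, a difference of 0.08 (SE 0.21, adjusted p = 0.814, edgeR).

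Bulge-like cells, where 34.9% of genes were called, gave opposite changes for the pair. *Krt16* rose by 1.88 (SE 0.38, adjusted p = 0.00148, edgeR), from 525.5, 419 and 198 CPM in Control 1 to 3 to 1244, 986, 2492 and 1890 CPM in PITX1+ 1 to 4. These Control values rest on 17, 11 and 6 transcripts. *Krt6a* fell by 1.56 (SE 0.25, adjusted p = 0.000231, edgeR), from 5780, 5979 and 30570 CPM to 2166, 1805, 11630 and 13310 CPM. In CPM the *Krt6a* fall is seen within each slide and not across them, since the male PITX1+ sections exceeded the female Control sections. Per cell it is seen on the female slide alone, at 0.172 and 0.169 transcripts in Control 1 and 2 against 0.125 and 0.114 in PITX1+ 1 and 2. On the male slide Control 3 held 0.94 transcripts per cell against 0.98 and 1.63 in PITX1+ 3 and 4. Different clusters filled the class, however: cluster 40, led by *Wfdc3* and *Krt75*, held most Control bulge-like cells, and clusters 7 and 22, led by *Lgr5* and *Ptch1*, most of those in PITX1+ skin. The latter were mostly cluster 22 in PITX1+ 1 and 2 (2800 and 8597 cells) and mostly cluster 7 in PITX1+ 3 and 4 (6189 and 2679 cells). Of the markers of the class, *Cd34* (-1.98) and *Krt15* (-2.78) fell over all keratinocyte-like cells of PITX1+ skin. *Lgr5* (0.74) rose there and the other markers did not pass (edgeR). *Krt75* is a gene of the companion layer, so the class was not shown to hold bulge cells alone. In cluster 40 alone, where 16% of genes were called, *Krt16* rose by 2.84 (SE 0.39, adjusted p = 0.000632, edgeR) and *Krt6a* gave 0.57 (SE 0.37, adjusted p = 0.349, edgeR). In cluster 22, where 12.4% of genes were called, *Krt6a* gave 1.13 (SE 0.62, adjusted p = 0.238, edgeR) over 2 Control and 3 PITX1+ sections. Its Control side is 3 and 2 transcripts in 88 and 84 cells, too few to show a fall or its absence. The lower *Krt6a* of the class was thus not seen in cluster 40, and cluster 7 was not tested. Cluster 40 held 50.8%, 52.9% and 35.9% of the *Krt6a* transcripts of keratinocyte-like cells in Control 1 to 3.

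The epidermal classes varied between sections. Cornifying keratinocyte-like cells held 290, 336 and 556 CPM of *Krt16* in Control 1 to 3, 7730 and 20760 CPM in PITX1+ 1 and 2, and 793 and 366 CPM in PITX1+ 3 and 4. Basal keratinocyte-like cells held 355, 258 and 234 CPM in Control skin and 1340, 5131, 1202 and 364 CPM in PITX1+ skin. Cornifying cells were thus far above the Control range in the female sections and close to it in the male ones, but different clusters filled the class. Cluster 28 held most cornifying cells of Control skin (1690, 1525 and 1574 cells) and of PITX1+ 3 and 4 (1825 and 1842), and cluster 10 most of those in PITX1+ 1 and 2 (1908 and 1789), with 240.9 and 305.4 panel transcripts per cell against 41.7 to 99.1 in Control cluster 28. Within cluster 28 *Krt16* was 281, 342 and 487 CPM in Control 1 to 3 and 6934, 354 and 200.3 CPM in PITX1+ 1, 3 and 4, the first from 169 cells (2.05, SE 1.29, adjusted p = 0.679, edgeR). Basal cells of PITX1+ 1 and 3 were at like levels above the Control range, those of PITX1+ 2 were the highest and those of PITX1+ 4 were close to it. Basal cells of female Control skin were mostly cluster 20 (2724 and 1787 cells) and those of PITX1+ 3 and 4 mostly cluster 11 (1994 and 1462). *Krt16* did not pass within cluster 20 (3.64, SE 0.89, adjusted p = 0.103, edgeR) or cluster 11 (2.32, SE 0.70, adjusted p = 0.0727, edgeR). Of all genes, 0% and 7.67% were called in clusters 20 and 11, and 0% in cluster 28. These fits therefore do not show that *Krt16* was unchanged there. Neither class passed the test over both slides, with 4.17 (SE 2.19, adjusted p = 0.266, edgeR) in cornifying and 3.08 (SE 0.79, adjusted p = 0.0726, edgeR) in basal cells, where 0.658% and 3.47% of genes were called. Without Control 3 both were called, at 7.64 (adjusted p = 0.000874, edgeR) and 3.87 (adjusted p = 0.0268, edgeR), where 35.7% and 7.74% of genes were called. These estimates rest on the female slide alone, and the cornifying call sets cluster 28 in Control against cluster 10 in PITX1+ skin. DESeq2 called both with all sections, at 4.10 (adjusted p = 0.00457) and 2.93 (adjusted p = 0.00194), among 22.6% and 15.9% of genes. Without PITX1+ 4 basal cells were called too (3.34, adjusted p = 0.0217, edgeR), among 13.7% of genes. Basal, cornifying and epidermal suprabasal-like cells together held 37.4% and 79.1% of the *Krt16* of keratinocyte-like cells in PITX1+ 1 and 2 but 1.80% and 2.83% in PITX1+ 3 and 4. The follicle classes (upper follicle, bulge, matrix and shaft) held 35.0% and 13.8% on the female slide and 60.5% and 78.4% on the male slide, and most of the rest lay in the unnamed keratinocytes.

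Classes scarce in Control skin held some of the highest *Krt16* levels of PITX1+ skin. Hair shaft-like cells stood at 14360, 11330, 24200 and 17570 CPM in PITX1+ 1 to 4, and hair matrix-like cells at 6758, 5953, 18430 and 8333 CPM. The unnamed keratinocytes held 9717, 11270, 18940 and 18370 CPM. Epidermal suprabasal-like cells, a class led by *Krt1* and *Fabp5*, held 10030, 39600, 15620 and 576 CPM. Its markers *Krt77* and *Krt1* stood at means of 73330 and 21100 CPM in Control keratinocyte-like cells. Control cells with these markers were thus placed in other classes, and the scarcity is that of the named class. The hair matrix-like level was carried by cluster 30 (9923, 12430, 29110 and 21390 CPM), whereas cluster 9, with 2709 cells in PITX1+ 2 and 1286 in PITX1+ 4 the larger cluster there, held 976, 987, 5426 and 1615 CPM. The epidermal suprabasal class spanned from near the Control level in PITX1+ 4 to the highest value of any unwounded skin class in PITX1+ 2. *Krt6a* was also high in the unnamed keratinocytes, at 19220, 19920, 34530 and 25770 CPM, and *Krt17* at 196600, 174900, 132700 and 107200 CPM. Cycling cells, with too few cells in Control 2, gave the single *Krt17* call within a class (0.94, SE 0.23, adjusted p = 0.0300, edgeR, where 11.4% of genes were called). It was lost without PITX1+ 2 (0.64, adjusted p = 0.190, edgeR), without PITX1+ 3 (0.75, adjusted p = 0.127, edgeR) and with DESeq2 (0.59, adjusted p = 0.226). Of 15 pairs of member and class tested, 5 passed, against 3 without Control 2 and 10 without Control 3. The share of all genes called moved alike in the epidermal classes: without Control 2 it was 0.311% in basal and 0% in cornifying cells, and without Control 3 it was 7.74% and 35.7%. Every fit without Control 3 takes its change from the female slide alone.

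**Figure D2:**
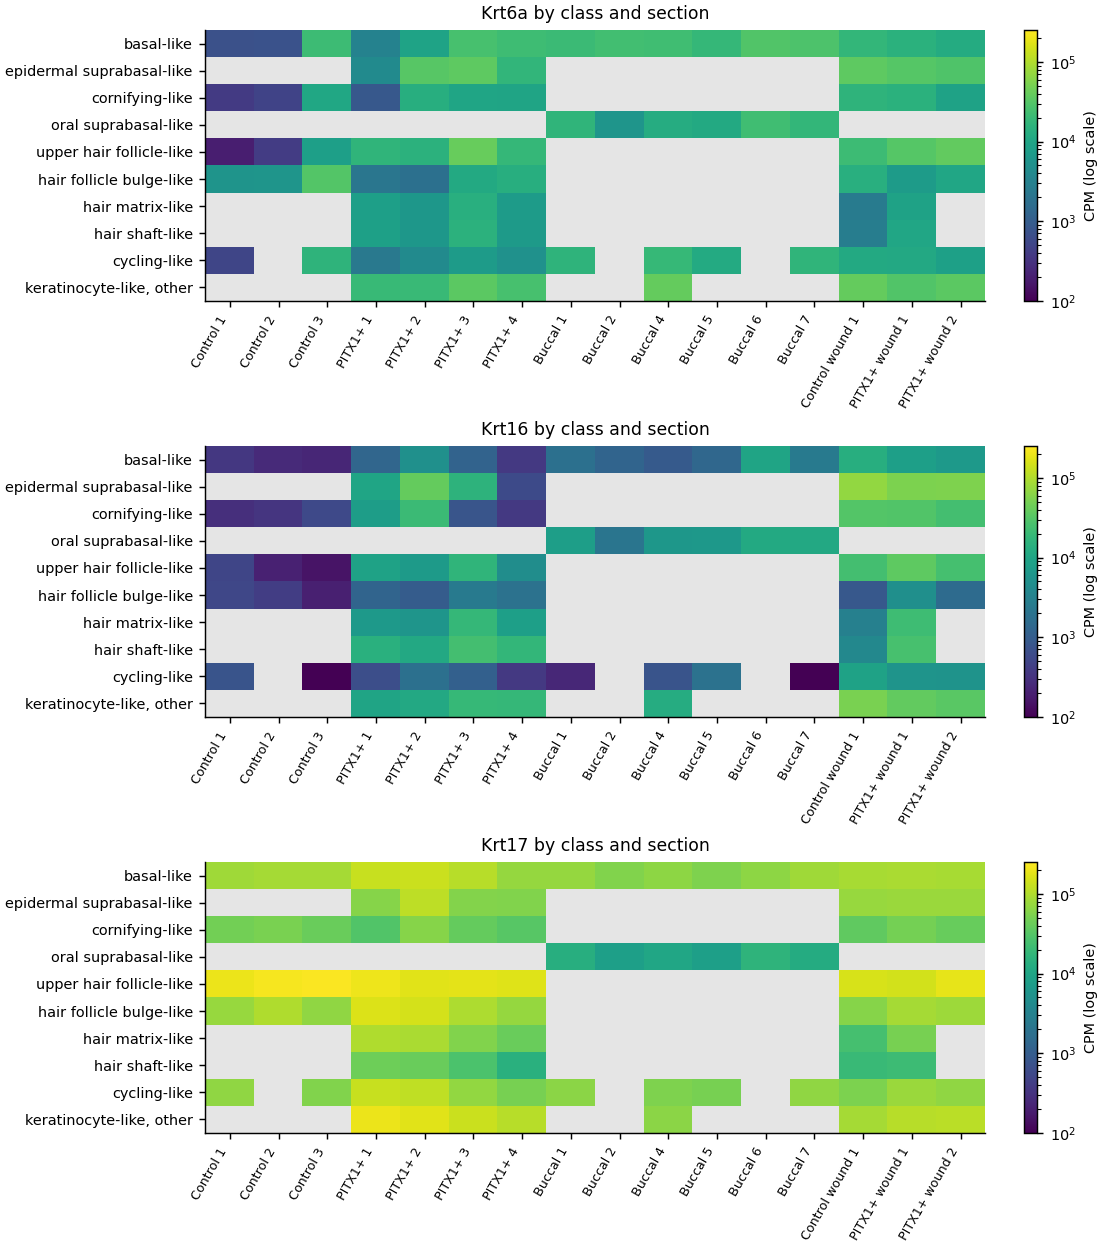
Level of each stress keratin by keratinocyte-like class (rows) and section (columns), in CPM on a log colour scale. Values under 100 CPM are drawn at 100 and grey cells have under 50 cells. In PITX1+ skin *Krt16* is high in upper hair follicle, hair matrix and hair shaft-like cells on both slides and lower in bulge-like cells (986 to 2492 CPM). It is also high in cornifying cells of PITX1+ 1 and 2, which lie mostly in another cluster than those of Control skin, and in epidermal suprabasal cells of PITX1+ 1, 2 and 3, a class that is grey in Control sections. *Krt17* is highest in upper hair follicle-like cells of every unwounded Control section.

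Buccal mucosa held *Krt6a* and *Krt16* at rest. *Krt16* ranged from 1962 to 11240 CPM over 6 sections with a median of 6168, above every Control skin section and overlapping PITX1+ skin. *Krt6a* ranged from 8300 to 24540 CPM with a median of 16520, overlapping both Control 3 and PITX1+ skin. *Krt17* ranged from 15100 to 29890 CPM with a median of 24560, below every skin section. Per cell, which takes in the greater depth of buccal cells, *Krt17* gave 3.73 to 7.81 transcripts, so on that scale buccal mucosa overlapped Control skin (2.37 to 4.18) and PITX1+ skin. *Krt6a* gave 2.05 to 5.78 transcripts per cell, above every unwounded skin section (at most 1.56). In buccal against Control sections *Krt16* rose by 5.60 on the log2 scale (SE 0.56, adjusted p = 8.90e-06, edgeR) and *Krt6a* by 2.43 (SE 0.94, adjusted p = 0.0377, edgeR), and *Krt17* gave -0.30 (SE 0.22, adjusted p = 0.237, edgeR). In this comparison 69.8% of 325 genes were called.

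Scaling mattered in both buccal comparisons. With TMM scaling the median of all genes was -0.30, and with library size it was -1.68, with 101 genes higher and 126 lower against 50 and 204. Relative to the median of all genes under the same scaling, *Krt16* and *Krt6a* stood above it and *Krt17* close to it under both. With library size *Krt6a* was no longer past the threshold (1.34, adjusted p = 0.132, edgeR) and *Krt17* was lower (-1.64, adjusted p = 3.8e-05, edgeR), which is the scale of the CPM values above. Leaving out 1 section of the 9 also ended the *Krt6a* call in 6 cases, Control 1, Control 2 and Buccal 1, 5, 6 and 7, with values of 1.91 to 2.46 and adjusted p of 0.0510 to 0.0807 (edgeR). Without Control 3 it was 5.54 (adjusted p = 1.29e-06, edgeR).

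Against PITX1+ skin, buccal mucosa was higher for *Krt6a* (1.42, SE 0.28, adjusted p = 0.00104, edgeR) and lower for *Krt17* (-1.05, SE 0.31, adjusted p = 0.00971, edgeR), and *Krt16* did not pass (0.71, SE 0.42, adjusted p = 0.161, edgeR). Of 324 genes, 61.4% were called, with 77 higher and 122 lower under TMM and 37 and 198 under library size, and the median of all genes moved from -0.47 to -1.58. With library size the *Krt6a* difference was 0.31 (adjusted p = 0.388, edgeR) and that of *Krt16* changed sign to -0.36 (adjusted p = 0.476, edgeR). *Krt17* was still lower there (-2.15, adjusted p = 6.5e-05, edgeR). Relative to the median of all genes, *Krt6a* and *Krt16* stood above it and *Krt17* below it under both scalings. The comparisons share sections: the Control sections serve PITX1+ against Control and buccal against Control, the PITX1+ sections serve PITX1+ against Control and buccal against PITX1+, and the buccal sections serve both buccal comparisons.

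The layers of the buccal epithelium divided the members. *Krt17* was a gene of the basal layer, at 55240 to 81630 CPM (median 66020) in basal keratinocyte-like cells and 8307 to 16040 CPM (median 11330) in oral suprabasal-like cells. *Krt16* went the other way, at 929 to 9754 CPM (median 1584) in basal and 2082 to 11620 CPM (median 7208) in suprabasal cells. *Krt6a* stood at 18150 to 29760 CPM (median 22830) in basal and 5901 to 22410 CPM (median 14890) in suprabasal cells. *Krt17* did not overlap between the layers over the 6 sections. Within each section *Krt16* was higher in the suprabasal class, in CPM and per cell, in 6 of 6 sections. For *Krt6a* the order depended on the scale: in CPM the basal class was higher in 6 of 6 sections, and per cell the suprabasal class, whose cells hold more panel transcripts, was higher in 5 of 6, with 1.97 to 7.43 transcripts against 2.03 to 3.83. Oral suprabasal-like cells held 74.6% to 96.2% of the *Krt16* and 61.1% to 78.4% of the *Krt6a* transcripts of keratinocyte-like cells. Salivary gland-like cells, found in numbers in 3 buccal sections, held 1053, 26350 and 67620 CPM of *Krt17* and up to 177 CPM of *Krt16*.

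Depth into the epithelium was followed by the distance from each keratinocyte-like cell to the nearest cell of another type. *Krt16* was higher at 20 to 40 µm than within 10 µm in 14 of 16 sections. In PITX1+ 1 to 4 it went from 2793, 1944, 2443 and 692 CPM to 10080, 20020, 16660 and 6731 CPM, 3.61-fold to 10.3-fold. In the buccal sections it rose with distance in 6 of 6 (2.07-fold to 3.44-fold), and in Control skin in 1 of 3. *Krt6a* was higher in the far bin in 4 of 4 PITX1+ sections (1.58-fold to 5.32-fold), 0 of 3 Control sections and 1 of 6 buccal sections. *Krt17* was lower in the far bin in 14 of 16, most steeply in buccal mucosa, where the far bin held 0.144 to 0.398 of the near level. The bins mix epidermis and follicle and share their cells between genes, and these counts are descriptions. With bins of double width *Krt16* was higher in the far bin in 11 of 16 sections, among them 3 of 4 PITX1+ sections (lowest ratio 0.833) and 4 of 6 buccal sections (lowest 0.228), and *Krt6a* in 1 of 4 PITX1+ sections.

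**Figure D3:**
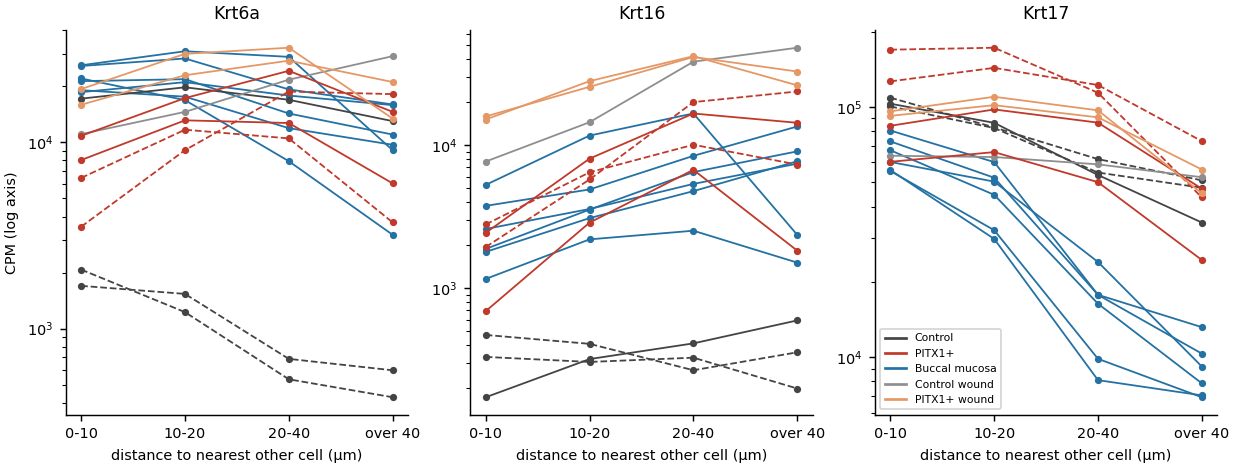
Level of each stress keratin in keratinocyte-like cells (CPM, log axis) against the distance to the nearest cell that is not keratinocyte-like (µm), 1 line per section, dashed for the female slide. *Krt16* climbs from the 0 to 10 µm bin to the 20 to 40 µm bin in all 4 PITX1+ and all 6 buccal sections, and *Krt17* falls in all buccal sections.

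The 3 members met in single cells in PITX1+ skin, buccal mucosa and wounds. Cells with at least 1 transcript of each made up 0.127%, 0.125% and 0.338% of keratinocyte-like cells in Control 1 to 3 and 16.9%, 18.7%, 17.96% and 8.06% in PITX1+ 1 to 4. Buccal sections had 9.03% to 26.9%, and the wounds 26.6% in the Control wound and 47.5% and 49.97% in the PITX1+ wounds. Among fibroblast-like cells of Control 1 to 3 it was 0 of 3470, 0 of 2741 and 0 of 3415, which allow up to 0.0865%, 0.109% and 0.0878%, and at most 0.169% in PITX1+ skin. Depth differed between these groups, so each cell was also thinned to 10 transcripts. Thinned, the share with all 3 was 0.0528% to 0.326% in 5 of 6 buccal sections and 2.02% in Buccal 6, and 1.52%, 2.35% and 2.73% in the wounds. The mean difference of buccal from PITX1+ sections was 5.04 percentage points before thinning and -0.117 after it.

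Thinned in this way, *Krt16* was found in 0.398%, 0.299% and 0.226% of keratinocyte-like cells in Control 1 to 3 and in 4.65%, 5.99%, 5.83% and 2.46% in PITX1+ 1 to 4. The groups did not overlap, and the mean difference of 4.42 percentage points had p = 0.0571 by a two-sided exact permutation test, the smallest that 3 sections against 4 allow. All 3 together were found in 0.00590%, 0.0145% and 0.0282% against 0.588%, 0.902%, 0.829% and 0.178% (exact permutation p = 0.0571, two-sided). *Krt6a* was found in 1.49%, 1.74% and 17.8% against 7.25%, 7.09%, 15.8% and 12.3% (exact permutation p = 0.514), and *Krt17* in 48.6%, 50.3% and 42.5% against 72.0%, 70.0%, 56.3% and 43.3% (exact permutation p = 0.171). Of the 12 such tests over the 3 comparisons none passed after Benjamini-Hochberg adjustment, the lowest adjusted value being 0.0714. Fibroblast-like cells, thinned alike, held *Krt16* in 0.0131% to 0.151% of cells in Control skin, at median depths of 30 to 34 transcripts against 25 to 46.

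*Krt16* and *Krt6a* were often found in the same cells of PITX1+ skin. Without thinning, *Krt6a* was found in 61.2%, 73.1%, 78.9% and 71.0% of cells with *Krt16* in PITX1+ 1 to 4 and in 21.1%, 15.5%, 47.8% and 53.2% of cells without it. In Control 1 to 3 the figures were 7.87%, 8.64% and 35.0% with *Krt16* and 5.27%, 5.59% and 37.9% without it. *Krt6a* was thus more frequent in cells with *Krt16* than in cells without it in all 4 PITX1+ sections. In Control skin, where few cells held *Krt16*, the shares were closer, and in Control 3 the order was the other way. Deeper cells hold more of every gene, and the shares given here are those without thinning. The other reading of the pair, the number of *Krt6a* transcripts per *Krt16* transcript in keratinocyte-like cells, was 2.74, 3.57 and 46.2 in Control 1 to 3 and 1.29, 0.991, 1.84 and 3.24 in PITX1+ 1 to 4. It was 2.13 to 4.23 in buccal mucosa and 0.688, 0.785 and 0.922 in the wounds, below every unwounded section.

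The wounds held the highest *Krt16* levels of the series. Keratinocyte-like cells of the Control wound held 28190 CPM (95% exact Poisson interval 27800 to 28590), and those of PITX1+ wound 1 and 2 held 28830 (28560 to 29100) and 28480 CPM (28230 to 28730). The 3 intervals overlapped. *Krt6a* stood at 19400, 22640 and 26250 CPM and *Krt17* at 59690, 92920 and 96560 CPM in the same order, and *Pitx1* at 51.6, 643.5 and 324 CPM. With 1 Control wound there is no test, and the intervals cover counting error only.

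Wounded epidermis showed *Krt16* in the layers above the basal one. Epidermal suprabasal-like cells held 69290 CPM in the Control wound and 53660 and 54490 CPM in the PITX1+ wounds, the highest of the classes in each wound. Cornifying cells held 31130, 29630 and 23960 CPM, and basal cells 13530, 8393 and 6792 CPM. The follicle classes differed among themselves. Upper hair follicle-like cells held 23890, 35770 and 24570 CPM, and bulge-like cells were low by comparison, at 865, 4851 and 1527 CPM. Hair matrix-like and hair shaft-like cells held 3015 and 3875 CPM in the Control wound and 21980 and 25440 CPM in PITX1+ wound 1. The unnamed keratinocytes held 51750, 38190 and 33420 CPM and made up 4.28% of keratinocyte-like cells in the Control wound and 33.2% and 43.4% in the PITX1+ wounds. Epidermal classes held 84.8% of the *Krt16* transcripts in the Control wound and 30.8% and 36.0% in the PITX1+ wounds, where the unnamed keratinocytes held 53.4% and 58.6%.

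Distance from the wound margin set the sections apart. The margins were taken as the ends of the gap in the keratinocyte-like cells, which spanned 2800, 2800 and 2600 µm. On the first flank of the Control wound *Krt16* fell from 54730 CPM within 250 µm to 25380 at 250 to 500 µm, 18030 at 500 to 1000 µm, 472 at 1000 to 2000 µm and 419 CPM beyond 2000 µm. On its second flank the same bins held 43580, 41170, 39140, 14450 and 1216 CPM. The far end of both flanks thus came down toward the level of unwounded Control skin.

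In the PITX1+ wounds *Krt16* stayed high along 3 of the 4 flanks. PITX1+ wound 1 held 38440 CPM within 250 µm and 31320 CPM beyond 2000 µm on the first flank, and 23300 and 26580 CPM on the second. PITX1+ wound 2 held 41240 and 27670 CPM on its second flank. Its first flank was the exception, with 26880 CPM within 250 µm, 36130 at 500 to 1000 µm, 11540 at 1000 to 2000 µm and 1977 CPM beyond 2000 µm, from 112, 304, 665 and 184 cells. *Pitx1* on that flank stood at 2201, 699, 472 and 188 CPM in the same bins, from 14, 23, 39 and 4 transcripts. On the second flank, where *Krt16* stayed high, *Pitx1* went from 523 CPM at the margin to 261 CPM at the far end, from 47 and 198 transcripts. PITX1+ unwounded skin of the same sex held 9856 and 3645 CPM of *Krt16* over all keratinocyte-like cells.

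*Krt6a* fell less steeply than *Krt16* on the first flank of the Control wound. The bins from the margin outward held 30850, 18810, 6936, 6875 and 11230 CPM, so the lowest level was not at the far end. On the second flank it went from 46510 CPM within 250 µm through 23890, 24770 and 11080 CPM to 1954 CPM beyond 2000 µm. In PITX1+ wound 1 it was 25330 and 15260 CPM at the margin and 24600 and 19960 CPM at the far end. In PITX1+ wound 2 it was 22800 and 27400 CPM at the margin and 8283 and 27690 CPM at the far end. In CPM *Krt17* varied less with distance, at 30700 to 79490 CPM over all bins of the Control wound, 77540 to 103000 CPM in PITX1+ wound 1 and 49840 to 102400 CPM in PITX1+ wound 2. Per cell it went in the Control wound from 21.75 and 21.05 transcripts within 250 µm to 5.38 and 2.72 beyond 2000 µm, as panel transcripts per cell went from 318.8 and 264.8 to 93.0 and 88.6.

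**Figure D4:**
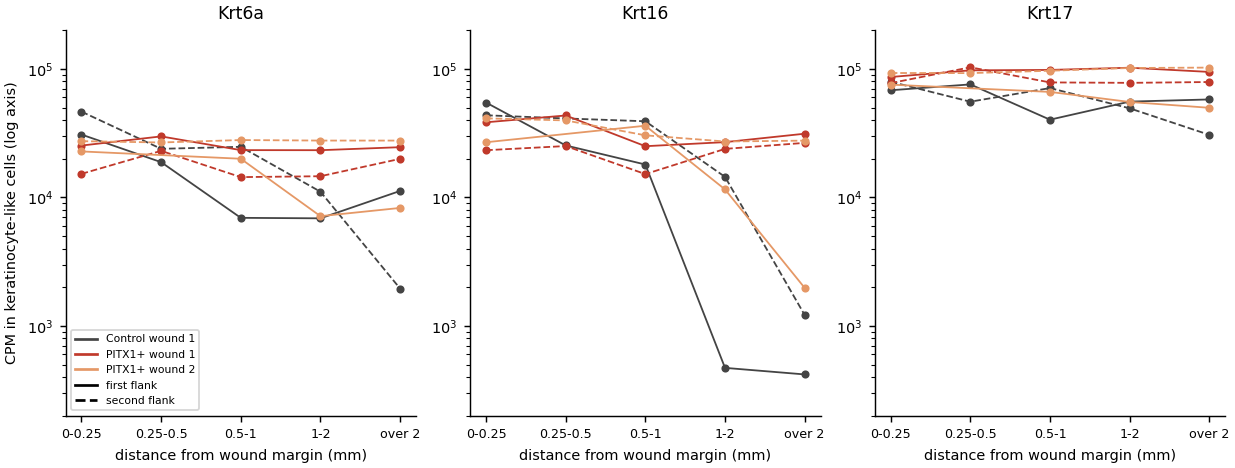
Level of each stress keratin (CPM, log axis) against distance from the wound margin (mm), 1 line per flank of each wound. *Krt16* drops to 419 and 1216 CPM on the flanks of the Control wound and is 31320, 26580 and 27670 CPM at the far end of 3 of the 4 flanks of the PITX1+ wounds.

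**Figure D5:**
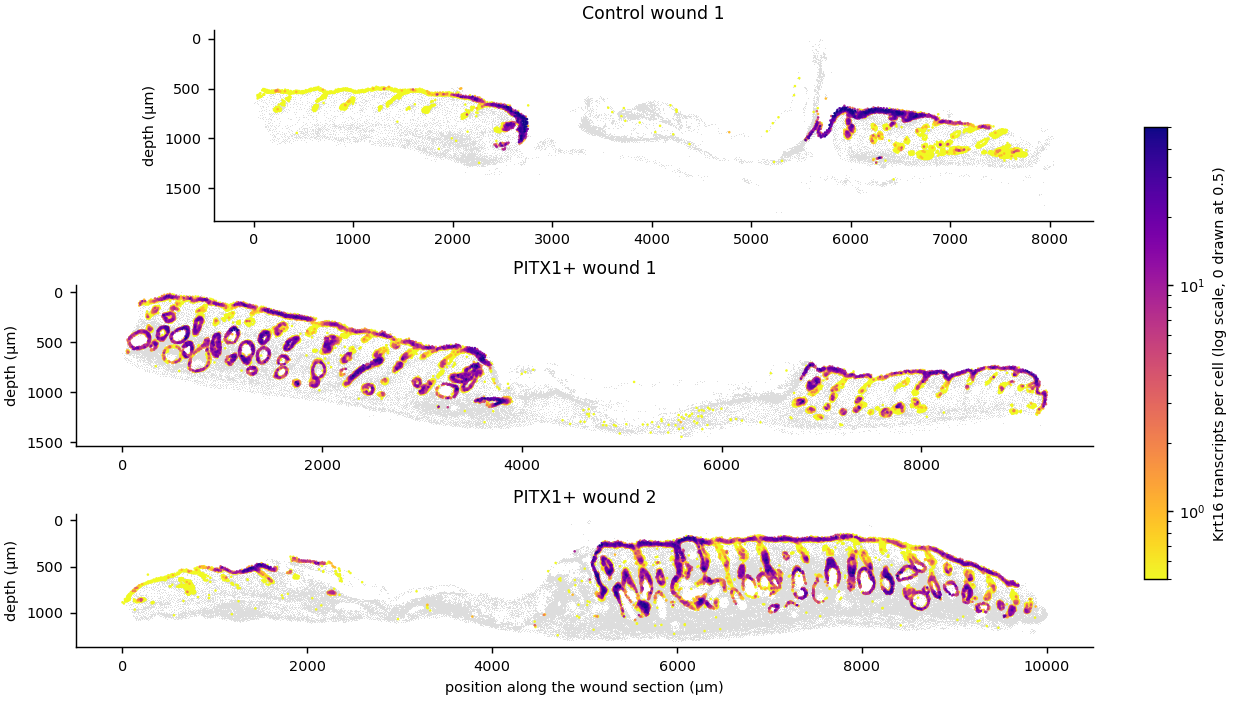
Positions of cells in the Control wound and both PITX1+ wounds (both axes in µm, to scale within a panel), with keratinocyte-like cells coloured by their number of *Krt16* transcripts on a log scale, 0 drawn at 0.5, and all other cells in grey. In the Control wound the cells rich in *Krt16* lie near the gap. In the PITX1+ wounds they lie along the section, except on the first flank of PITX1+ wound 2, where 184 cells beyond 2000 µm held 1977 CPM.

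Across classes and sections each member kept its own company. Over 67 pairs of class and section, 10 classes in 13 sections without wounds, the log2 CPM of *Krt16* ran most like that of *Slpi*, a protease inhibitor of epithelia (r = 0.796), and the cornified envelope precursors *Sprr1a* (0.687) and *Sprr1b* (0.667). *Krt17* ran most like *Cxcl16*, a chemokine (0.798), *Lrig1*, a marker of upper follicle stem cells (0.776), and *Sdc1*, which encodes syndecan-1 (0.764). *Krt6a* had weaker likenesses, to the transcription factor gene *Cebpb* (0.580), the gap junction gene *Gja1* (0.575) and the desmosomal cadherin gene *Dsg3* (0.569). Among themselves the members gave r = 0.334 for *Krt6a* with *Krt16*, -0.101 for *Krt6a* with *Krt17* and -0.150 for *Krt16* with *Krt17*. These are descriptions, since points share sections and depth.

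Genes of keratinocyte activation were read in the same fit of PITX1+ against Control skin, where 33.2% of all genes were called. Of 22 such genes on the panel, several of them named by the study from these samples and so not independent of its direction, 8 rose, 1 fell and 13 did not pass (median 1.52 against -0.06 over all genes tested). *Slpi* rose by 5.96 (SE 0.54, adjusted p = 0.00140, edgeR), *Sprr1b* by 4.11 (SE 0.91, adjusted p = 0.0181, edgeR) and *S100a8*, an alarmin, by 4.08 (SE 0.65, adjusted p = 0.00904, edgeR). *Serpinb2*, a protease inhibitor of stressed keratinocytes, fell by 1.67 (SE 0.28, adjusted p = 0.00950, edgeR). Of 17 signals and transcription factors that act on keratinocyte activation 3 rose, 1 fell and 13 did not pass (median 0.33), a smaller share of calls than over all genes, as it was for the other keratins. *Areg* (2.42, adjusted p = 0.0101) and *Tgfa* (1.32, adjusted p = 0.0192), both ligands of the EGF receptor, and *Cebpb* (1.23, adjusted p = 0.0149) rose, and *Fos* fell by 1.07 (adjusted p = 0.0192, all by edgeR). Of 12 other keratins only *Krt4*, an oral keratin, rose (3.19, SE 0.69, adjusted p = 0.0174, edgeR), and *Krt77* (-3.07, adjusted p = 0.0108) and the basal and bulge keratin *Krt15* (-2.78, adjusted p = 0.0130, both by edgeR) fell.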

How the data were processed

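The authors deposited Xenium output for 4 slides, with transcript counts per cell, decoded transcripts with a quality score each, positions in µm and a mark for the nucleus. The aligner or decoding software version was not given in the sources used here. Cell outlines were not used. Transcripts scoring at least 20 were counted in segmented cells, and these sums equalled the deposited counts in 100% of cells. The slides held 6288712 to 10483436 such transcripts, 98.15% to 99.1% of them in cells.

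Cells within 100 µm of each other (200 µm on the wounded slide) were chained into sections, and pieces of at least 2000 cells were kept. The labels do not give the condition of a section, and conditions were set by the order of sections along the slide. The assigned transcripts came to 474847 to 749248 per Control section, 2832562 to 5581930 per PITX1+ section, 136365 to 2368603 per buccal section and 1622746, 3336168 and 5430303 in the wounds. Cells with at least 10 transcripts were clustered (k-means, 45 clusters on 40 principal components) and named from marker genes. The members, *Pitx1*, the activated keratinocyte genes and the signals and transcription factors stayed out of the clustering. The list of other keratins stayed in it. Doublets were not removed.

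Counts were summed per section and class of at least 50 cells and tested with edgeR 4.0.16 (R 4.3.3, TMM, quasi-likelihood, slide as covariate in skin) at an adjusted p of 0.05. Buccal comparisons had no slide covariate. Shares were compared by exact permutation after thinning each cell to 10 transcripts. Intervals are 95% and cover counting error only, as does the upper limit of 3 counts used for a count of 0. Wound gaps were runs of 100 µm bins with fewer than 20 keratinocyte-like cells, set after seeing the maps.

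Alternatives were library size scaling, DESeq2 1.42.0, no slide covariate, all transcripts of any quality, nuclear transcripts alone, other clusterings, thinning to 20 and leaving out each section. Fits over the shared classes, within single clusters and for the slide term were chosen after seeing the data. The edgeR fit and the thinning formula were tested on simulated data, and the other steps were not. Python 3.11.15, numpy 2.4.6, scipy 1.17.1, pandas 2.3.3 and scikit-learn 1.9.0 were used.

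Named genes were the members, *Pitx1*, the top 3 in each direction from lists of 22 activated keratinocyte genes, 17 signals and transcription factors and 12 other keratins, and the 3 genes most like each member by Pearson r of log2(CPM + 10). The members and lists were chosen with earlier results of these data known.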

Additional observations from a re-analysis of the deposited data

Results flagged for a closer look

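Of 56 groups of sections tested for a single value far from the rest, 5 had one, and about 1 in 20 groups would by chance. In Buccal 6, 11.0% of keratinocyte-like cells held *Krt16* after thinning against 4.79% in the next section, a gap of 0.642 of the range of the 6 sections. Buccal 6 also stood apart for cells with all 3 members, at 2.02% against 0.326%, 0.861 of the range. *Krt16* in its basal keratinocyte-like cells was 9754 CPM against 2479 CPM, 0.824 of the range. *Krt6a* in upper hair follicle-like cells of PITX1+ 3 was 40910 CPM against 18370 CPM, 0.885 of the range of 4 sections. *Krt17* in epidermal suprabasal-like cells of PITX1+ 2 was 114100 CPM against 61090 CPM, 0.913 of the range. For *Krt6a* the step from Control to PITX1+ was smaller on the male slide than on the female one, by a log2 difference of -4.34 (adjusted p = 0.0111 for the interaction, edgeR), with Control 3 as the single male Control section.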

How the results depend on the processing

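Of 328 genes 109 were called in PITX1+ against Control skin, 33 without the slide covariate and 66 over the 4 shared classes, and leaving out single sections gave 38 (PITX1+ 2), 41 (Control 2), 50 (Control 1) and 89 to 127 for the rest. *Krt16* stayed called in that comparison under every alternative run, at 4.36 to 5.30 with single sections left out. *Krt6a* gave 0.98 to 3.78 and was called without Control 3 (adjusted p = 0.00285, edgeR), and *Krt17* gave 0.37 to 1.16 and was called without Control 3 (adjusted p = 0.0439, edgeR). Both of these calls rest on the female slide alone. In buccal against Control sections, *Krt6a* (2.43) was 1.34 with library size, 1.29 with library size without the members and 1.77 from nuclear transcripts, none of them called. *Krt17* (-0.30) was -1.64, -1.68 and, with transcripts of any quality, -0.67, all called. In buccal against PITX1+ sections, *Krt6a* (1.42) was 0.31 and 0.20 with library size, with and without the members, and *Krt16* (0.71) was -0.36 and -0.49, and -0.064 from nuclear transcripts. The cause of these shifts was not tested.

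Leaving out single sections gave, for buccal against Control, 5.39 to 5.88 for *Krt16*, 1.91 to 5.54 for *Krt6a*, -0.43 to -0.10 for *Krt17* and 202 to 243 genes. For buccal against PITX1+ it gave 0.44 to 1.02, 1.20 to 1.51, -1.29 to -0.95 and 179 to 209 genes. Calls of members within classes, 5 of 15, ranged from 3 to 10. The share tests gave 0 of 12 with or without a section. For PITX1+ against Control this says nothing of stability, since 3 sections against 4 cannot reach the threshold. Signs turned for *Krt6a* in cycling cells (0.25) to -0.64 without Control 1 and -0.29 without PITX1+ 2, in a range of -0.64 to 2.97. They turned for *Krt17* in upper hair follicle-like cells (0.08) to -0.10 without PITX1+ 1 and -0.0034 without PITX1+ 3, in a range of -0.10 to 0.54, and in cluster 28 of the cornifying cells to -0.17. *Krt6a* in bulge-like cells (-1.56) was 0.57 in cluster 40 and 1.13 in cluster 22, the latter with 3 and 2 transcripts in its Control sections. The *Krt17* share of buccal against Control (-20.6 percentage points) was 9.40 without thinning. Against PITX1+ skin the *Krt16* share (-0.100) was 0.568 without thinning and -1.38 to 0.561 with a section left out, above 0 in 6 of 10 cases (0.0275, 0.561, 0.176, 0.142, 0.318 and 0.267), and the share with all 3 (-0.117) was 5.04 without thinning. *Krt16* was higher away from other cells in 11 of 16 sections with bins of double width, against 14. The Control levels of *Krt16* rest on 54 to 132 transcripts, 1 male Control section and 1 Control wound.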
